A study of Mus musculus with 2 samples.

Results

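The sorting nexin genes were taken as the protein-coding genes of the mm10 RefSeq gene table whose symbol is Snx followed by a number, which gave 30 of 21887 protein-coding genes. Each was examined for peaks of Arid1b chromatin immunoprecipitation with sequencing (ChIP-seq) over input within 1 kb of either annotated end of the gene, here called boundary peaks. Arid1b is a paralogue of Arid1a and a DNA-binding subunit of BAF, one of the SWI/SNF complexes that remodel chromatin. The analysis rests on 2 libraries, 1 of chromatin precipitated with an Arid1b antibody and 1 of input chromatin without antibody, both from cultured dental mesenchyme cells. The mice were wild type and of the strain C57BL/6, and the cells were taken from the apical end of first lower molars at postnatal day 3.5 to 7.5 and grown with 10% serum. The title and design text of the series speak of Arid1a and of Gli1-CreER;Arid1a fl/fl mice, whereas the labels of these libraries name Arid1b and wild-type cells. With 1 library of each kind, no value below has a replicate check and none compares conditions. A peak is a site of Arid1b signal and not a measure of expression.

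Sorting nexins are proteins that share a phox homology (PX) domain, which in many of them binds phosphoinositides and brings the protein to endosomes. They differ in the domains that accompany it. Nexins with a membrane-bending BAR domain form dimers that shape the tubules through which receptors leave the endosome, either for the trans-Golgi network or for the cell surface, and several of them work with the retromer complex. Others bind cargo through FERM-like or PDZ domains, tether the endoplasmic reticulum to other membranes through PXA and nexin domains, or consist of little more than the PX domain.

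Of the 30 sorting nexin genes, 18 (60%, exact binomial 95% interval 40.6 to 77.3) had a boundary peak, against 22.2% of all protein-coding genes. This count was part of how the family was chosen and is given as a description. The 18 were Snx1, Snx2, Snx4, Snx5, Snx6, Snx7, Snx8, Snx9, Snx10, Snx13, Snx14, Snx15, Snx16, Snx17, Snx18, Snx21, Snx32 and Snx33. The 12 without were Snx3, Snx11, Snx12, Snx19, Snx20, Snx22, Snx24, Snx25, Snx27, Snx29, Snx30 and Snx31. Of these 12, Snx24 and Snx30 had a peak inside the gene, and the other 10 had none inside or within 10 kb. With any peak inside the gene or up to 10 kb away, 20 members counted, against 31.7% of all protein-coding genes. At the edge of the 1 kb window, the nearest peak of Snx15 lay 915 bp from the gene and was counted, and that of Snx30 lay 1194 bp inside it and was not.

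The members were also counted by whether they have a BAR domain. Of 12 members with a BAR domain, 11 had a boundary peak (91.7%, exact binomial 95% interval 61.5 to 99.8), and the remaining one, Snx30, had the peak just outside the window. Of the 18 members without a BAR domain, 7 had one (38.9%, 17.3 to 64.3). The intervals take genes as independent, although members are not replicates, and the family was chosen partly by these counts. They are given as description only. The intervals overlap, and that of the members without a BAR domain holds the 22.2% of all genes. With only the peaks whose expected level was the genome background, 4 of 12 BAR genes and 2 of 18 others had one, against 11% of all genes. In the full peak list the 7 without a BAR domain included 2 of 8 placed in the class of the PX domain alone or with a short extension (Snx10 and Snx16). The others were 1 of 2 with a PXB domain (Snx21), 1 of 3 with a FERM-like domain (Snx17), 2 of 4 with PXA and nexin domains (Snx13 and Snx14), and the single MIT member Snx15. All 10 members without a peak inside the gene or up to 10 kb away were outside the BAR class. The domain classes were assigned without a protein table to check them, and Snx29 was placed with the PX only members. They were also chosen with earlier results of these data known, so no test was made of the difference between them.

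**Figure D1:**
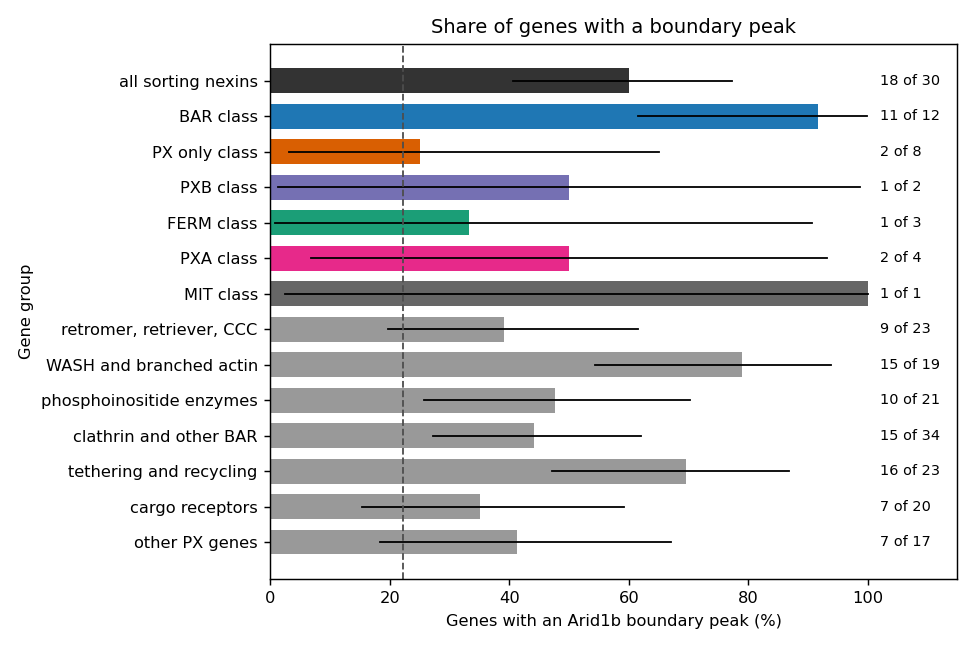
Percent of genes with an Arid1b boundary peak (x axis) for the sorting nexin family, its 6 domain classes and 7 lists of other endosomal genes (y axis), with exact binomial 95% intervals as black lines, counts at the right and the 22.2% of all protein-coding genes as a dashed line. The BAR class stands at 11 of 12 and the PX only class at 2 of 8, and the small classes have intervals that span most of the axis.

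Start sites and promoter sequences from the RefSeq promoter table (GRCm38.p6, the assembly that mm10 names) matched 21 of the 30 members. Snx2, Snx9, Snx15, Snx16, Snx20, Snx24, Snx27, Snx31 and Snx32 are given by their gene ends alone. The sequences below are the 250 bases before the annotated start site, read 5′ to 3′ on the gene's strand. They show the 4 members of the promoter table with the strongest boundary peaks, then the shortest and the longest of its members without any peak within 10 kb. Capitals mark the searched motifs named after them.
Snx7: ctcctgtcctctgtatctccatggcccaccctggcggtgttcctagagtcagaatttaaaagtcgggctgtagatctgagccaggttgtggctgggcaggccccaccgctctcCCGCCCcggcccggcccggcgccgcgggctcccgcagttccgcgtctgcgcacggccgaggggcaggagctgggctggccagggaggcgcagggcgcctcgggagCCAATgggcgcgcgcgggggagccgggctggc
Snx13: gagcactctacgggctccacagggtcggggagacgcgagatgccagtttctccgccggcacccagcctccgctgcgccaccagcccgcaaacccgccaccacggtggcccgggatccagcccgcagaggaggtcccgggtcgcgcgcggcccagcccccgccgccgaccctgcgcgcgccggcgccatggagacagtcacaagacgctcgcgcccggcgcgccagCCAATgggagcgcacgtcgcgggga
Snx18: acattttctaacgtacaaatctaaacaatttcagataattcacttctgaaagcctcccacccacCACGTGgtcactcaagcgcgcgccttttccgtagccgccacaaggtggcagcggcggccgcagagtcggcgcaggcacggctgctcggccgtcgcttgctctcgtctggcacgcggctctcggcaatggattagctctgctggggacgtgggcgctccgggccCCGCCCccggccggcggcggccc
Snx4: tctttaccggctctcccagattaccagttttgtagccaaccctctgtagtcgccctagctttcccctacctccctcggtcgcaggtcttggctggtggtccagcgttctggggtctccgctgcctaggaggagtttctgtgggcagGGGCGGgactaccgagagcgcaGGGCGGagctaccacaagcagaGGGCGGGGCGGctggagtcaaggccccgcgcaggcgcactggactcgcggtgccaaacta
Snx22: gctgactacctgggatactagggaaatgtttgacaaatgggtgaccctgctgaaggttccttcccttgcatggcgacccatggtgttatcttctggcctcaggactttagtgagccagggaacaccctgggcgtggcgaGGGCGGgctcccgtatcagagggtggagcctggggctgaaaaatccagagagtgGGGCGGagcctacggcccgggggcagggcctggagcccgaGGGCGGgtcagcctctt
Snx29: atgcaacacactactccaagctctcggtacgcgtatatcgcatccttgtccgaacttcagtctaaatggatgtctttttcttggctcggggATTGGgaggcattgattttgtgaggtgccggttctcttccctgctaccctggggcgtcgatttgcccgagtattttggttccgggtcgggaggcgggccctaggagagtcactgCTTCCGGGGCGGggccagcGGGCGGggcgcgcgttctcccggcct
They lie at chr3:117868937-117869186 (minus strand, Snx7), chr12:35046939-35047188 (plus strand, Snx13), chr13:113618565-113618814 (minus strand, Snx18), chr16:33251206-33251455 (plus strand, Snx4), chr9:66069760-66070009 (minus strand, Snx22) and chr16:11322654-11322903 (plus strand, Snx29).

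Among these 6 sequences, GGGCGG and CCAAT stood before genes with and without an Arid1b peak. The GC box GGGCGG, searched like all motifs on both strands, stood at 4 positions before Snx4, of which the pair that begins at positions -60 and -55 from the start site overlaps by 1 base. It stood at 3 positions before Snx22, which had no peak, at 2 before Snx29 and at 1 each before Snx7 and Snx18. CCAAT began at position -32 from the start site of Snx7, -25 of Snx13 and -159 of Snx29, the last on the other strand. The E-box CACGTG was present once before Snx18, and the ETS-like CCGGAAG once before Snx29, where it overlaps a GC box by 1 base.

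Over the whole promoter window of 300 bases (250 before and 50 from the start site on), GGGCGG was found in 10 of 13 members with a boundary peak and 6 of 8 without. It was found in 46.3% of the promoters of all 17492 protein-coding genes in the table, 72.1% of those with a boundary peak and 38.8% without. CCAAT was found in 6 of 13 and 4 of 8, against 39% of all (40.5% with and 38.6% without a peak). CCGGAAG was found in 2 of 13 (Snx14 and Snx17) and 3 of 8 (Snx11, Snx12 and Snx29), against 11.9% (19.8% with and 9.61% without). CACGTG was found in 3 of 13 (Snx5, Snx8 and Snx18) and in 0 of 8, against 7.9% (11.1% with and 6.98% without). TATAAA was found at Snx33 only, against 13.3% (5.95% with and 15.5% without). The palindromic CLEAR element of lysosomal genes, TGACGTCA, TGANTCA, the palindromic NRF1 motif and GGAATG were found in 0 of the 21, against 0.452%, 2.34%, 7.08%, 1.32% and 13.4% of all. The CLEAR element contains CACGTG, so matches to it count for both. Each is a match of letters in this window and nothing more. Snx30, counted here among the 8 without a boundary peak, had a peak within 1 kb of its start site.

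CpG content did not separate the members with and without a peak, although it went with peaks over all genes. Promoters of the 13 members with a boundary peak held 10 to 46 CpG dinucleotides (median 26) and those of the 8 without held 11 to 36 (median 27). The corresponding medians over all genes in the table were 24 with and 8 without a boundary peak. Snx30, at 11 CpG the lowest of the members without a boundary peak, had a peak within 1 kb of its start site. Boundary peaks lay at 4.34% of all genes with under 10 CpG, 25.8% of those with 10 to 19 and 42.3% of those with 20 and over. None of the 21 members fell in the lowest class. In the highest class 11 of 17 members had a peak, and these were 6 of 6 BAR genes and 5 of 11 others. The part of CpG content in the family's count was not tested.

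Among the BAR nexins, those that pair in the retromer-linked tubulating coat all carried a boundary peak, as did 11 of the 12 BAR genes. The fold of each was below the median of 3.92 over all genes with such a peak. Of all 18 members with a boundary peak, only 6 lay above that median. Strength is given as the authors' summit fold, a linear ratio to input, and the interval in brackets is the exact Poisson 95% interval of the summit pileup, which covers counting error only. Snx1 (gene at chr9:66088127-66124886) had a single peak at chr9:66124518-66124748 with a fold of 3.61 (2.53 to 5.01), from 34 fragments over an expected level of 8.68. Its close relative Snx2 (chr18:53176292-53220866) had one of 3.30 (2.35 to 4.52) that began 133 bp inside the low-coordinate end. Snx5 and Snx6, which dimerise with Snx1 and Snx2 and recognise cargo, had 3.0 (2.24 to 3.94) and 2.82 (1.97 to 3.90). Snx32, a relative of Snx6 known for expression in brain, had 2.79 (2.01 to 3.77), the lowest of the strongest boundary peaks in the family. The intervals of these 5 peaks overlap one another, so their order was not resolved at this depth. Those of Snx1, Snx2 and Snx5 held the median of 3.92, whereas those of Snx6 and Snx32 lay below it.

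The retromer adaptors outside the BAR class lacked a boundary peak, as did 11 of the 18 members without a BAR domain. Of those 18, 10 had no peak within 10 kb either. Snx3, which recruits retromer for the Wnt carrier Wls, its close relative Snx12, and Snx27, whose PDZ domain couples receptors to retromer, had no boundary peak and no peak within 10 kb. The nearest peak lay 46541 bp from Snx3, 83993 bp from Snx27 and 1952472 bp from Snx12. Snx12 lies on chromosome X, where 2.48% of protein-coding genes had a boundary peak. Of the 8 members named as retromer partners, 5 therefore had a boundary peak (62.5%, exact binomial interval 24.5 to 91.5). The interval holds the 60% of all members. These 5 were all BAR genes, of which 11 of 12 had a boundary peak, so the count does not set retromer partners apart from other BAR genes. The promoters of Snx3 and Snx12 held 28 and 20 CpG, within the range of the members with a peak.

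The BAR nexins of recycling from early endosomes included one of the stronger peaks of the family. Snx4, which returns transferrin receptor to the surface and acts in autophagy, had a peak of 3.94 (2.83 to 5.35) at chr16:33251513-33251804. Snx7, a dimer partner of Snx4, had 4.54 (3.32 to 6.08) at chr3:117868671-117868893, from 43 fragments over 8.68. Snx30, the other partner of Snx4, had its only peak at chr4:59806325-59806599 with 3.51 (2.45 to 4.89). That peak lay 675 bp downstream of the start site in the promoter table, which is itself 519 bp inside the annotated gene end. Counted from the start site, Snx30 thus had a peak within 1 kb, as did the other BAR genes in the promoter table. Snx8, which sorts cargo from endosomes to the trans-Golgi network, had a boundary peak of 3.30 (2.28 to 4.65) and an interior one of 3.82 (2.71 to 5.25), 5128 bp from the gene's end.

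The 3 nexins with an SH3 domain beside the BAR domain, which bind dynamin and act at the plasma membrane, each had 2 boundary peaks. Snx9 (chr17:5841324-5931956) had 4.34 (3.14 to 5.85) at chr17:5840750-5841080, just outside the gene, and 3.04 (2.29 to 3.96) at chr17:5841351-5842022, just inside it. Snx18 had 4.05 (3.03 to 5.32) across its start site and 3.84 (2.82 to 5.11) beyond it. It also had 4 more peaks further into the gene, between 3.38 and 4.04, so that 6 peaks lay between positions 113614226 and 113618670 of chromosome 13. Snx33 had 3.17 (2.17 to 4.48) and 2.82 (1.94 to 3.96). One other member had 2 boundary peaks, Snx17, making 4 of 30 members, against 4.82% of all protein-coding genes. Among genes with any boundary peak these are 22.2% of the members and 21.7% of all genes.

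Outside the BAR class the strongest boundary peak of the family belonged to Snx15, but it lay nearer to another gene. Snx15, which pairs its PX domain with a MIT domain, lies at chr19:6119399-6132415. The peak, at chr19:6117802-6118484 with 4.69 (3.46 to 6.22), had its summit 189 bp from the end of Sac3d1, whose annotated start site at 6118586 was 102 bp from the peak. Snx13, an endoplasmic reticulum nexin with an RGS domain, had 4.54 (3.32 to 6.08) at chr12:35046864-35047126 and a second peak of 3.38 (2.45 to 4.55) that missed the 1 kb window at 1150 bp. The first overlaps the Snx13 sequence shown above. Snx14, which tethers the endoplasmic reticulum to lipid droplets, had 3.46 (2.52 to 4.65). For their relatives Snx19 and Snx25 the closest peaks were 563329 and 32794 bp away.

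The other members with a peak were mostly weak. Snx16, which acts in receptor traffic to late endosomes, had 3.65 (2.58 to 5.01). Snx10, known for its need in bone resorption by osteoclasts, had 3.41 (2.36 to 4.77) over the second of 3 start sites in the table. Snx17, which with retriever recycles Lrp1 and integrins, had 3.08 (2.17 to 4.26) and 3.05 (2.1 to 4.29) on either side of its start site. Both of these also lay within 1 kb of Eif2b4, a translation initiation factor gene on the opposite strand that begins 122 bp from Snx17, and the nearer of them was 142 bp from its start site. Snx21 had 3.06 (2.18 to 4.18). The Snx5 peak likewise lay 65 bp from the start site of Mgme1, which is separated from Snx5 by 1 bp. In all, 15 of the 30 members had a boundary peak that no other protein-coding gene shared, against 15.9% of all genes. Snx5, Snx15 and Snx17 had only shared ones. They are 3 of the 18 members with a boundary peak, against 28.5% of all genes with one.

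**Figure D2:**
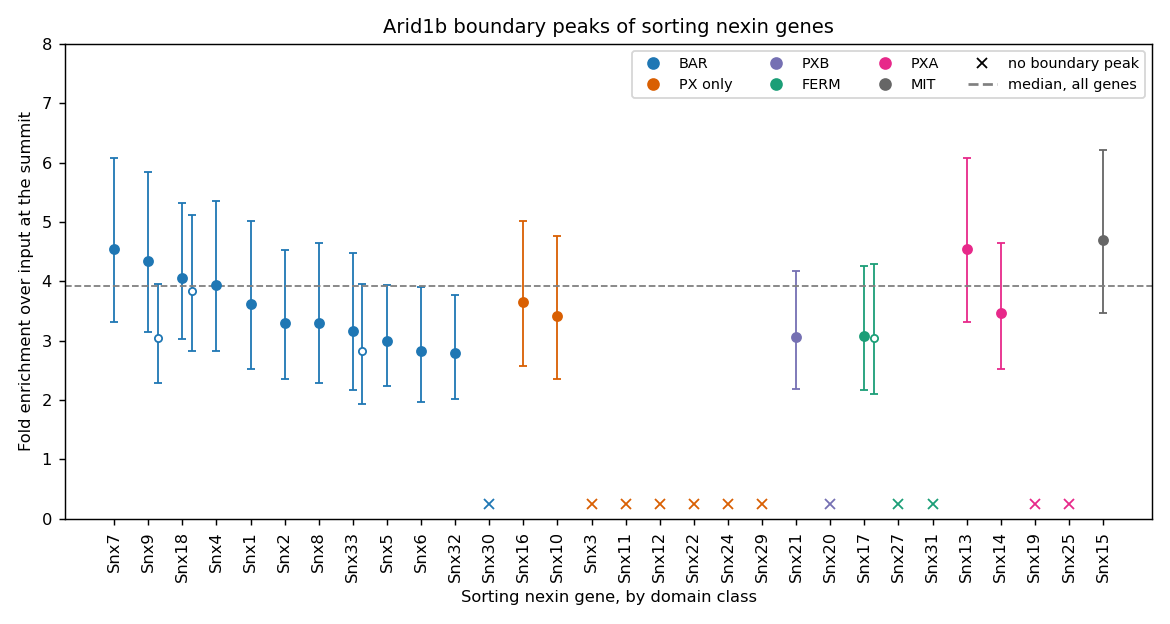
Summit fold of Arid1b over input (y axis, linear ratio) for each boundary peak of the 30 sorting nexin genes (x axis, grouped by domain class), with exact Poisson 95% intervals as bars. Filled points are the strongest peak of a gene, open points a second one, crosses near the bottom mark genes without a boundary peak and carry no value, and the dashed line is the median of 3.92 over all genes with such a peak. Most intervals overlap one another, and no peak reaches 5.

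Sorting nexin peaks were on the weak side of the list. The strongest boundary peak per gene had a median fold of 3.43 (2.79 to 4.69 over the 18 genes) against 3.92 over all 4857 genes with one, and 6 of the 18 lay above that median. None of the 22 boundary peaks reached a fold of 5, a level met by 11.7% of all boundary peaks. The median summit pileup was 38 fragments (30 to 53) against 39 over all boundary peaks, while the expected input level was above the genome background of 8.68 in 16 of 22 (72.7%) against 55.6%. Thus the median pileup was near that of all boundary peaks, although the highest was 53 against 236. The share with a raised expected level was higher among these 22 peaks, a difference that was not tested. The part of local input in the folds was not tested. The interval of the fold held the median of all boundary peaks (3.82) in 21 of the 22, so these could not be told apart from it at this depth. The exception was Snx32, whose interval of 2.01 to 3.77 lay below it.

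Where a start site was known, the peaks lay at the starts of the genes and mostly just downstream of it. Snx2, Snx9, Snx15, Snx16 and Snx32 had boundary peaks but no start site in the promoter table. Whether those peaks lay at the start end was not determined. Of the 13 members in the promoter table with a boundary peak, all 13 had it at the start end and 0 at the other end, against 95.6% and 9.57% of all such genes. Within 1 kb of a start site, 14 of the 21 members had a peak, against 23.9% of all protein-coding genes in the table. These were 9 of 9 BAR genes and 5 of 12 others. For the strongest such peak of each member, the summit lay between -420 bp (upstream, Snx17) and 743 bp (downstream, Snx30) of the start site, with a median of 169 bp downstream against 180 bp over all genes. The whole peak lay downstream in 8 of 14 (57.1%), covered the start site in 4 and lay upstream in 2, Snx13 and Snx17. Over all genes the whole peak lay downstream in 57.7%. The sequences printed above therefore lie upstream of the Snx7 and Snx4 peaks, which began 43 and 57 bp after the start site.

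**Figure D3:**
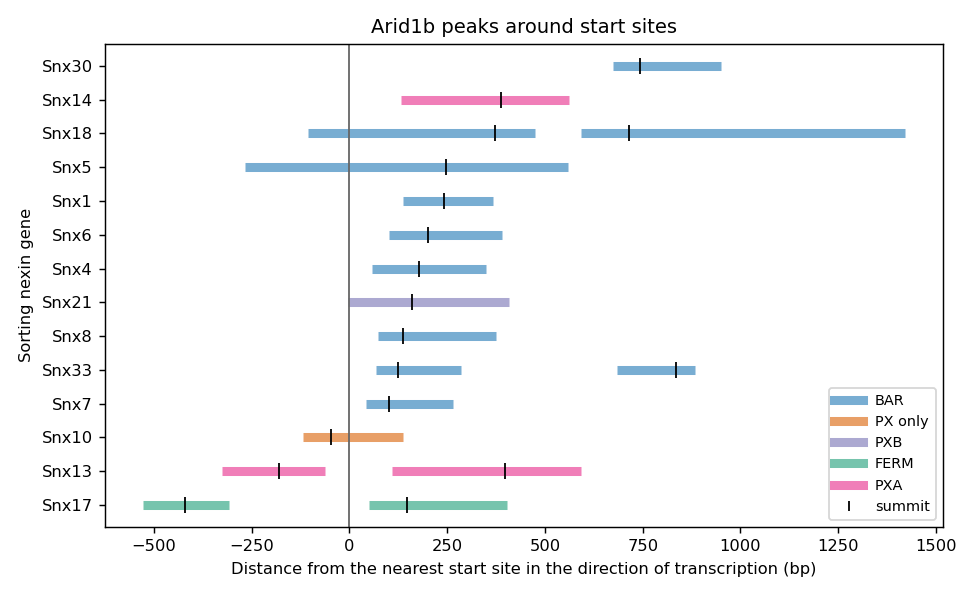
Extent of each Arid1b peak that reaches within 1000 bp of a start site (horizontal bars, with the summit as a black tick) against distance from the nearest annotated start site in bp, positive in the direction of transcription (x axis), for 14 sorting nexin genes (y axis, coloured by domain class). Most bars begin right of 0, and Snx13 and Snx17 have a peak on either side.

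Members without a boundary peak were longer genes than members with one, the opposite of the order over all genes. The 18 with a peak had a median length of 40.7 kb (5.64 for Snx17 to 101 kb for Snx13), and the 12 without had a median of 70.6 kb (4.59 for Snx22 to 436 kb for Snx29). The ratio of the medians was 0.576, whereas over all protein-coding genes it was 1.55, from 24.1 and 15.5 kb. The lengths overlapped widely, and the shortest member of all had no peak. By length class, 2 of 4 members under 10 kb had a peak (15.6% of all genes of that length), 6 of 7 from 10 to 30 kb (23.9%), 9 of 14 from 30 to 100 kb (29.6%) and 1 of 5 of 100 kb and over (23.8%). Members without a peak in the longest class were Snx12, Snx24, Snx25 and Snx29. This order was not stable. The ratio was 0.963 when peaks anywhere in the gene or within 10 kb counted, which took in the long genes Snx24 and Snx30, and 1.21 over the 21 members when start sites replaced gene ends.

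**Figure D4:**
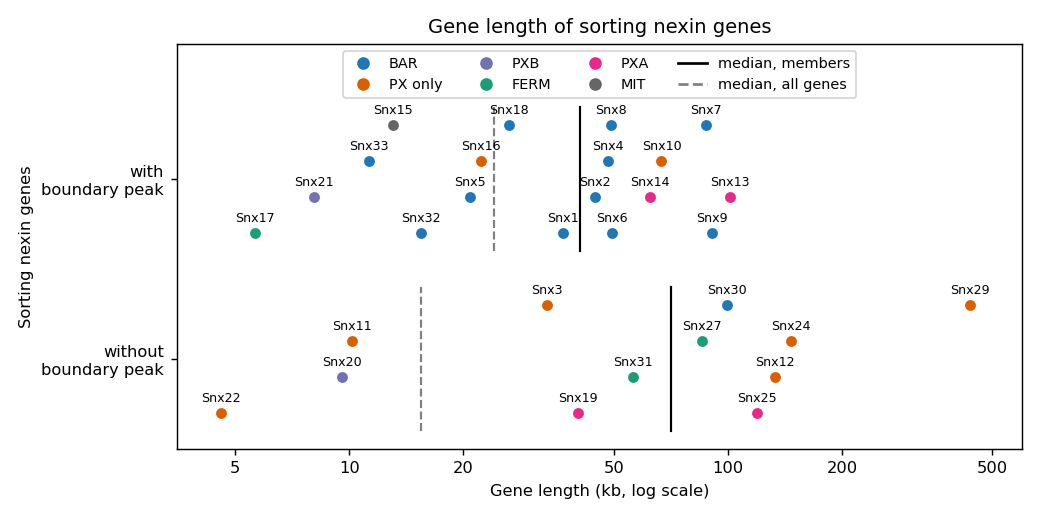
Gene length in kb (x axis, log scale) of sorting nexin genes with and without an Arid1b boundary peak (y axis, staggered only for legibility and coloured by domain class). Solid lines are the members' medians, 40.7 kb with and 70.6 kb without, and dashed lines are the medians of all protein-coding genes, 24.1 and 15.5 kb.

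Of the 3 pairs of members under 1 Mb apart, 2 differed. Snx22 and Snx1 lie 18.4 kb apart on chromosome 9 with no coding gene between them, and Snx1 had its peak while the nearest to Snx22 was 54759 bp away. Snx2 and Snx24 lie 23.1 kb apart on chromosome 18, likewise with no coding gene between. Snx24 had 3 interior peaks, of which the first, at chr18:53245766-53246038 with 4.53 (3.33 to 6.03), lay 1833 bp from the gene's end. The strongest, at chr18:53268022-53268273 with 4.65 (3.40 to 6.20), lay 24089 bp inside. Both folds were above that of the Snx2 boundary peak, with overlapping intervals. Snx32 and Snx15, 609 kb apart on chromosome 19 with 34 coding genes between them, both had a boundary peak.

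Expression was not measured in these libraries, so it can be set beside the peaks only as background. Snx20, which binds the selectin ligand of leukocytes, and Snx31, known from the bladder epithelium, are nexins of specialised cells, and their closest peaks were 60885 and 47961 bp away. Among nexins known to be made in most tissues, Snx1, Snx2, Snx5, Snx6 and Snx17 had a boundary peak, whereas Snx3 and Snx27 had none. Snx10 and Snx32, known best from osteoclasts and brain, had a boundary peak. The nexins named here by expression are examples picked with their peaks known. The remaining members were not grouped by expression, so no share of peaks by expression can be read from these examples. Markers of the labelled cells, the dental mesenchyme, had boundary peaks at 13 of 15 genes (86.7%), beside 22.2% over all protein-coding genes. Blood and immune genes had 0 of 8 and endothelial genes 0 of 6, but the exact binomial 95% intervals reach 36.9% and 45.9%, so lists of this size do not separate them from all genes.

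Genes that work with the sorting nexins were counted in 7 lists, to be read against the 22.2% of all protein-coding genes. Differences between the lists were not tested, and the intervals again take genes as independent. Over all genes, boundary peaks ranged from 4.34% with under 10 promoter CpG to 42.3% with 20 and over. The CpG content of the listed genes is not given here, so 22.2% is a share without regard to it. The retromer list, with retriever and the COMMD complex, had 9 of 23 (39.1%, exact binomial 95% interval 19.7 to 61.5, which holds the share of all genes). In it the retromer subunit genes Vps35 (4.03, 2.88 to 5.49), Vps26a (4.68, 3.49 to 6.14) and Vps26b (3.72, 2.62 to 5.13) had a peak and the small subunit gene Vps29 had none at its ends. Rab7, the GTPase that recruits retromer, had 4.31 (3.16 to 5.75). Ankrd50 had the highest fold of the list (5.06, 3.76 to 6.68). Commd3 and Commd7 were the only COMMD genes of 10 with a boundary peak, and Ccdc22 and Ccdc93 had none. Of the retriever genes, Vps26c had a boundary peak of 3.38 (2.45 to 4.55) and Vps35l had none. The list of the WASH complex and branched actin, which form the actin patches on sorting endosomes, had 15 of 19, highest at Arpc4 (5.72, 4.35 to 7.40), Washc1 (5.58), Actr2 (4.85) and Actr3 (4.73). Early endosome tethering and recycling had 16 of 23, led by Rab5b (7.54, 5.92 to 9.47), Rab11b (6.09) and Rab4b (5.16).

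Phosphoinositide enzymes, which make and remove the lipids that PX domains bind, had 10 of 21, at Mtmr14 (5.27), Mtmr4 (4.54), Pikfyve (4.43) and Atg14 (4.34) among others. The class III kinase genes Pik3c3 and Pik3r4 had no peak within 10 kb. Clathrin-mediated endocytosis and other BAR-domain genes had 15 of 34, highest at Cltc and Epn1 (6.40 each), Dnm2 (5.70) and Picalm (5.05). Cargo genes had 7 of 20 (15.4 to 59.2%), including Slc2a1 (5.99), Lrp1 (4.75), Itgb1 (4.10) and Sort1 (3.84), while Wls, Tfrc and M6pr had no peak within 10 kb. Kif1b, a motor gene that the list had taken in, is 1 of the 7. Other genes with a PX domain had 7 of 17 (18.4 to 67.1%), highest at Pxk (5.47) and Sgk3 (4.47). Together 79 of 157 of these genes (50.3%) had a boundary peak, with a median fold of 4.08. The intervals of the cargo and PX lists also hold 22.2%.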

How the data were processed

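Arid1b ChIP-seq and input were sequenced as 1 library each. Per the submitters' processing notes, which state neither roles nor parameters, the tools included MACS2 2.1.1, Bowtie2 2.2.5, FastQC 0.11.8 and Picard and the build was mm10. Read numbers are not given in the sources at hand. The deposited peak list has no header. In it the authors give each of 8318 peaks a fold enrichment over input (a linear ratio), a -log10 p-value and a -log10 q-value, and a summit position. The lowest -log10 p-value was 5.02.

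From fold and p-value, the whole summit pileup and the expected level were solved. The fold was read as a ratio of the 2 after adding 1 to each, and the p-value as the Poisson chance of a higher pileup. The largest error was 0.000162 in -log10 p. Depth enters through these pileups. Genes came from the RefSeq table of GRCm38.p6 (nuclear chromosomes, 21887 genes) and start sites from its promoter table, used with any start site for positions and with the first entry of a gene for sequence. Coordinates are 1-based. Medians, counts and intervals used Python 3.11.15, pandas 2.3.3 and scipy 1.17.1, and the assignment and the pileup solution were tested on simulated data. No test between groups was possible with 1 library per group.

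The members, the gene lists and the domain classes were chosen with earlier results of these data known. All members were named. Up to 6 genes per list with a boundary peak were to be named by fold, and for the retromer list more are named. List genes named without a boundary peak, or out of that order, were chosen after their values were seen. Varp, Zfyve20 and Snag1 are older names that matched no symbol. A further list of marker genes is not reported here. Alternatives were other windows, the summit, start sites, stricter q-value and fold, peaks with local input at background, and autosomes only.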

Additional observations from a re-analysis of the deposited data

How the results depend on the processing

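The number of sorting nexin genes with a boundary peak stayed between 14 and 20 with windows of 500 bp (16) and 5 kb (20), by summit (17), over gene bodies with 10 kb (20), at start sites (14 of 21), with a -log10 q of at least 5 (17) and on autosomes (18). With only the 3923 peaks at background input it was 6, and with a fold of at least 5 it was 0, so that no median fold or length ratio could be given there. The share of all protein-coding genes moved with it, to 20% with 500 bp, 27% with 5 kb, 21.5% by summit, 31.7% over gene bodies, 23.9% at start sites, 20.5% by q, 3.29% by fold, 11% with input at background and 23.4% on autosomes. The length ratio became 0.963 with 5 kb and over gene bodies, 1.21 at start sites and 2.1 with input at background, where 6 members remained. The count over the endosomal lists was 13 with a fold of at least 5 and 44 with input at background. The median fold stayed between 3.36 and 3.98 under the alternatives that gave one. No paired analysis was possible because each group has 1 library. With pileups of 30 to 53 fragments, members without a listed peak may hold signal under the authors' threshold.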
